A study of Mus musculus with 8 samples.

Results

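The G1 cyclins and their kinases are the 9 genes *Ccnd1*, *Ccnd2*, *Ccnd3*, *Ccne1*, *Ccne2*, *Cdk2*, *Cdk4*, *Cdk6* and *Cdc25a*. They were chosen by name as the machinery that takes a cell from G1 into S phase, with earlier results of these data known. Of the 9 genes, 8 had a transcript cluster of their own, the unit of probes that the array reports, among 22180 genes with such a cluster. The only cluster of *Ccne2*, the other E-type cyclin, also carries the symbol of a second gene, so no value is given for it. The cells were O9-1 cranial neural crest cells (cNCCs), a single immortalized mouse line that stands in for the mesenchyme of the developing face. All cultures had 24 h to attach before the medium was changed to DMEM with 1% FBS, as 4 vehicle-treated cultures and 4 cultures treated with the SHH-N peptide, the signaling fragment of Sonic hedgehog, at 0.4 μg/mL. RNA was collected 48 h later, and each culture, a biological replicate by its label, was measured on 1 Affymetrix Mouse Gene 2.0 ST array. Values are log2 signals, on which a difference of 1 is a doubling. The signal of a cluster depends on its probes, so levels are compared between treatments and not between genes.

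In G1, D-type cyclins bind the kinases CDK4 and CDK6, and the complexes phosphorylate the retinoblastoma protein. Phosphorylation releases E2F factors, which drive genes for DNA replication and the gene for cyclin E. Cyclin E then binds CDK2 to start S phase, CDC25A removes inhibitory phosphates from CDK2, and inhibitors of the CIP/KIP and INK4 families hold the kinases back. Hedgehog signaling is known as a mitogen in several tissues, and in cerebellar granule neuron precursors, for example, it raises D-type cyclins and *Mycn*.

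The 8 arrays were alike in scale, with median signals between 5.703 and 5.755, and arrays of the same treatment correlated more closely (r = 0.988 to 0.991 across all clusters) than arrays of different treatments (0.980 to 0.984). The treatment was visible in *Gli1*, *Ptch1* and *Hhip*, classical targets of the pathway, which rose by 4.71, 4.39 and 6.84 on the log2 scale. Of 12 measured markers of cranial neural crest and mesenchyme, 11 had signals above the median of all clusters, and their mean per array was 8.87 to 8.91 in vehicle-treated and 8.65 to 8.74 in SHH-treated cNCCs. Of these 12, 4 fell (*Snai2*, *Tfap2a*, *Prrx1* and *Prrx2*, with log2 fold changes of -1.53, -0.98, -0.62 and -0.42), 2 rose (*Cd44* and *Pdgfra*, at 0.69 and 0.32) and 6 did not pass the test. *Sox10*, a marker of early crest and glia, lay near the median of an array at 5.63 to 6.04. Among markers of other cells, the mean of the 5 epithelial genes was 5.47 to 5.72 with vehicle and 5.94 to 6.09 with SHH. Only *Cdh1* of the 5 was called, higher by 1.77, and the median log2 fold change of the list was 0.12. The mean of the 4 glial and neuronal genes was 5.38 to 5.63 and 5.62 to 5.99, with *S100b* alone called, higher by 1.20, and a median of 0.24. The 6 endothelial genes were at 5.09 to 5.16 and 5.15 to 5.33, with *Cdh5* alone called, higher by 0.67, and a median of 0.05. The 5 leukocyte genes were at 5.26 to 5.46 and 5.37 to 5.45, with a median of 0.00. Calls here follow the test described below, by which 9.98% of all genes were called in either direction. The part of these markers in the results was not tested.

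SHH-treated cNCCs had more RNA for *Ccnd1*, *Ccne1*, *Cdk2* and *Cdk6*, less for *Ccnd2*, and differences that did not pass the test for *Ccnd3*, *Cdk4* and *Cdc25a*. Calls rest on limma's moderated test across all 41345 clusters at a Benjamini-Hochberg adjusted p under 0.01, so that each p is adjusted over the whole array. By that rule 5 of the 8 measured genes were called. The genes were chosen with earlier results of these data known, so the counts given here are a description and not a test. The share of all clusters called was 6.48%, of 1 cluster per gene 9.98%, and of clusters above the median signal, where all 8 lay, 12.0%. In the higher direction 4 of the 8 were called, against 2.97% of all clusters, and in the lower direction 1, against 3.51%. The vehicle-treated and SHH-treated arrays did not overlap for 6 of the 8, against 18.6% of all clusters. The shares by direction and of no overlap were not computed for clusters above the median signal alone, where a larger share was called. The median log2 fold change of the 8 was 0.36, and that of all genes was 0.01. A culture can hold cells at different stages of the cycle, and the stages were not measured. A different share of cells in a stage and a different amount of RNA per cell therefore cannot be told apart.

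The 3 D-type cyclins moved apart. *Ccnd1*, the best known mitogen-induced cyclin, had log2 signals of 9.78, 9.72, 9.82 and 9.74 in vehicle-treated and 10.39, 10.32, 10.31 and 10.37 in SHH-treated cNCCs. Every SHH-treated array lay above every vehicle-treated one, by at least 0.49. *Ccnd1* rose by 0.58 (SE 0.05, 95% interval 0.46 to 0.70) or 1.496-fold, from 9.76 ± 0.04 to 10.35 ± 0.04 (SD, n = 4 each), with a limma adjusted p of 0.000168.

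*Ccnd2*, which binds the same kinases, went the other way. Its signals were 8.16, 8.10, 8.09 and 8.12 with vehicle and 7.49, 7.52, 7.41 and 7.22 with SHH. The groups were 0.57 apart at their nearest, and the spread was wider among the SHH-treated arrays (SD 0.14) than among the vehicle-treated ones (SD 0.03). *Ccnd2* fell by 0.71 on the log2 scale (SE 0.08, 95% interval -0.88 to -0.54), to 61.2% of the vehicle level, with a limma adjusted p of 0.000400. *Ccnd3*, the third of the family, had signals of 9.54, 9.54, 9.55 and 9.64 with vehicle and 9.64, 9.67, 9.51 and 9.46 with SHH. These ranges overlapped, 2 SHH-treated arrays lying at or above the highest vehicle-treated array and the other 2 below the lowest. The log2 fold change of *Ccnd3* was 0.00 (SE 0.07, limma adjusted p = 0.990), and its 95% interval of -0.15 to 0.16 runs from 0.900-fold to 1.11-fold.

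The unequal change of the 3 cyclins was tested within arrays, as the log2 signal of one gene minus that of another. The probes of a gene are shared by all arrays, so this difference can be compared between treatments although its level has no meaning. *Ccnd1* minus *Ccnd2* was between 1.62 and 1.73 on the vehicle-treated arrays and between 2.80 and 3.16 on the SHH-treated ones, a shift of 1.29 (SE 0.08). *Ccnd1* minus *Ccnd3* shifted by 0.58 (SE 0.07), from 0.10 to 0.27 up to 0.64 to 0.92. *Ccnd2* minus *Ccnd3* shifted by -0.71 (SE 0.04), from between -1.52 and -1.38 to between -2.24 and -2.10. In all 3 pairs the treatments did not overlap. Each exact permutation test gave p = 0.0286, two-sided, the smallest that 4 against 4 arrays can give. It stayed 0.0286 after adjustment over the 5 pairs compared. For *Ccnd1* minus *Ccnd2* this outcome was fixed in advance, since each gene alone separated the treatments, in opposite directions.

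**Figure D1:**
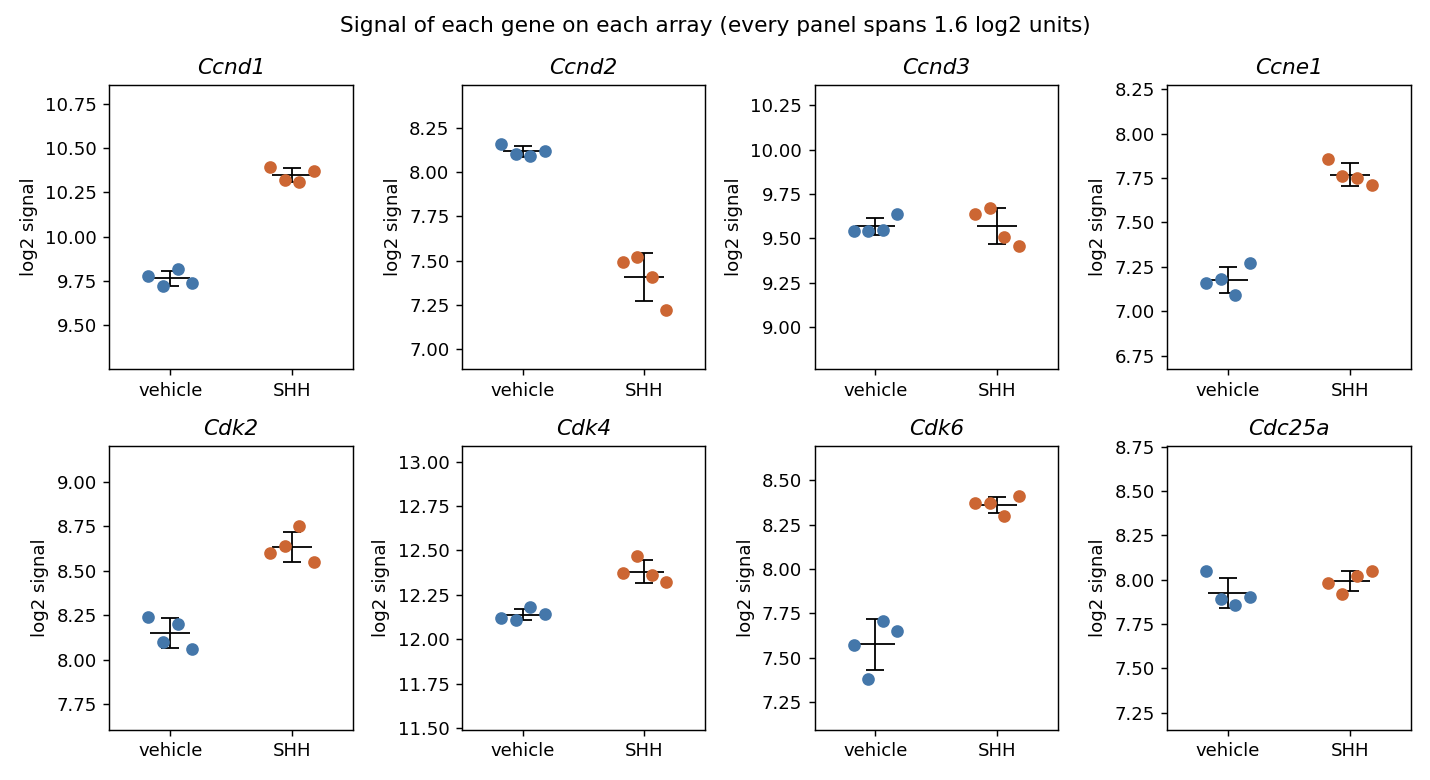
Log2 signal (vertical axis) of each measured gene on the 4 vehicle-treated (blue) and 4 SHH-treated (orange) arrays; points are arrays in the order of their replicate number, bars are the mean ± SD, and every panel spans the same height. The groups overlap for *Ccnd3* and *Cdc25a* and are apart for the other 6 genes, with *Ccnd2* lower and the other 5 higher in SHH-treated cNCCs.

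The kinases that D-type cyclins activate are *Cdk4* and *Cdk6*. *Cdk6* had signals of 7.57, 7.38, 7.71 and 7.65 in vehicle-treated and 8.37, 8.37, 8.30 and 8.41 in SHH-treated cNCCs. The lowest SHH-treated array was 0.60 above the highest vehicle-treated one. *Cdk6* rose by 0.78 (SE 0.08, 95% interval 0.61 to 0.96) or 1.72-fold, from 7.58 ± 0.14 to 8.36 ± 0.04 (SD, n = 4 each), with a limma adjusted p of 0.000283, which was the largest rise among the 8 genes.

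*Cdk4*, the partner of *Cdk6* in binding D-type cyclins, had signals of 12.12, 12.11, 12.18 and 12.14 with vehicle and 12.37, 12.47, 12.36 and 12.32 with SHH. No array of either treatment fell within the other group, the gap being 0.14. The log2 fold change of *Cdk4* was 0.24 (SE 0.06, 95% interval 0.11 to 0.37), from 12.14 ± 0.03 to 12.38 ± 0.06 (SD, n = 4 each) or 1.18-fold, and its limma adjusted p of 0.0247 did not pass the threshold. This call depended on the processing, since *Cdk4* passed in 5 of 18 settings, with the same log2 fold change of 0.24 and adjusted p between 0.00165 and 0.00931. *Cdk4* minus *Cdk6* was between 4.47 and 4.73 on the vehicle-treated arrays and between 3.91 and 4.10 on the SHH-treated ones. The shift was -0.54 (SE 0.07), with no overlap between the treatments (exact permutation p = 0.0286, adjusted over the 5 pairs 0.0286). The log2 signal of *Cdk6* thus changed by more than that of *Cdk4*. Only 0.573% of genes were brighter than *Cdk4*, and whether its change in RNA was understated at that signal was not tested.

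**Figure D2:**
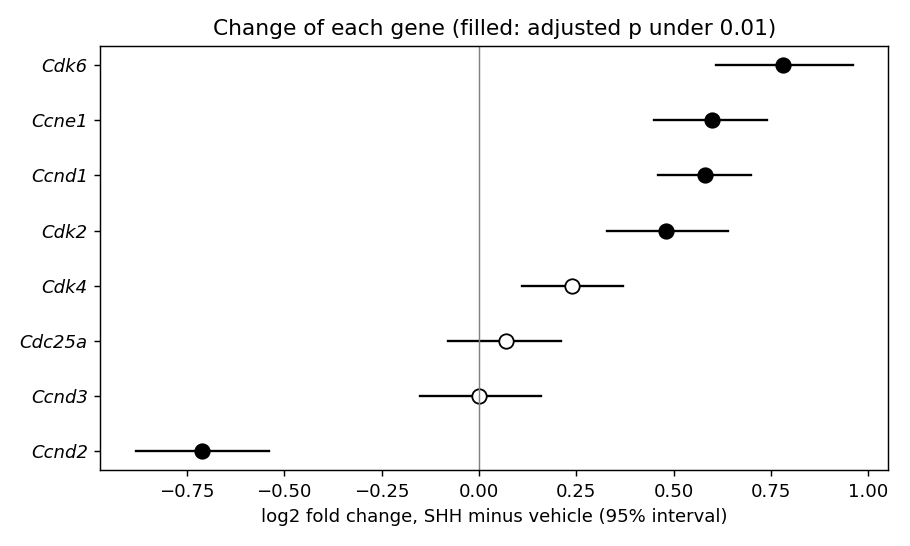
Log2 fold change of each measured gene, SHH minus vehicle (horizontal axis), with its 95% interval as a line; filled points passed an adjusted p of 0.01 and open points did not. *Cdk6*, *Ccne1*, *Ccnd1* and *Cdk2* lie between 0.48 and 0.78 with intervals that overlap each other, *Cdk4*, *Cdc25a* and *Ccnd3* lie between 0.00 and 0.24, and *Ccnd2* is at -0.71.

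Cyclin E with CDK2 acts after the D-type complexes. *Ccne1*, the measured E-type cyclin, had signals of 7.16, 7.18, 7.09 and 7.27 in vehicle-treated and 7.86, 7.76, 7.75 and 7.71 in SHH-treated cNCCs. All SHH-treated arrays were higher, with a gap of 0.44. *Ccne1* rose by 0.60 (SE 0.06, 95% interval 0.45 to 0.74) or 1.51-fold, from 7.18 ± 0.08 to 7.77 ± 0.06 (SD, n = 4 each), with a limma adjusted p of 0.000384.

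*Cdk2*, the kinase that cyclin E activates, had signals of 8.24, 8.10, 8.20 and 8.06 with vehicle and 8.60, 8.64, 8.75 and 8.55 with SHH. The groups were separated by 0.30. *Cdk2* rose by 0.48 (SE 0.07, 95% interval 0.33 to 0.64) or 1.40-fold, from 8.15 ± 0.08 to 8.64 ± 0.09 (SD, n = 4 each), with a limma adjusted p of 0.00221. Without vehicle replicate 2 its log2 fold change was 0.47 and its adjusted p of 0.0103 missed the threshold. *Cdk2* minus *Cdk4* shifted by 0.24 (SE 0.06), from between -4.08 and -3.88 to between -3.83 and -3.60. The treatments did not overlap (exact permutation p = 0.0286, adjusted over the 5 pairs 0.0286), but without SHH replicate 1, 3 or 4 the shift was 0.25, 0.20 or 0.25 and the adjusted p rose to 0.0571.

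*Cdc25a*, the phosphatase that activates CDK2, had signals of 8.05, 7.89, 7.86 and 7.90 in vehicle-treated and 7.98, 7.92, 8.02 and 8.05 in SHH-treated cNCCs. The groups overlapped over most of their range. The log2 fold change was 0.07 (SE 0.06, 95% interval -0.08 to 0.21, limma adjusted p = 0.593). The other phosphatases of its family act later in the cycle, and both were called. *Cdc25b* had signals of 7.56, 7.81, 7.63 and 7.61 with vehicle and 8.46, 8.57, 8.46 and 8.36 with SHH, a rise of 0.81 (SE 0.08, limma adjusted p = 0.000179). *Cdc25c*, which acts on the mitotic kinase, rose by 1.13 (SE 0.09, limma adjusted p = 0.000101), from between 4.51 and 4.79 to between 5.62 and 5.96. Its vehicle-treated signals lay below the array medians, where a change in RNA may be understated. Whether the 3 phosphatases differed in their change was not tested.

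Promoter sequences from RefSeq (GRCm38.p6) were matched by symbol for 6 of the 9 genes. They came as 7 windows of 250 bases before and 50 bases after a listed start, because *Ccnd3* has 2. For *Cdk6*, *Cdc25a* and 1 window of *Ccnd3* this listed start lies inside the gene. *Cdk6* spans from 3341004 but its window opens at 3343643, and *Cdc25a* spans from 109875518. Positions in those windows are therefore not distances from the first base of the gene. *Ccnd1*, *Ccnd2* and *Ccne2* were not matched. The windows were searched on both strands for letters that E2F factors (TTTGGCGC, TTTCCCGC, TTTCGCGC or TTTGCCGC), GLI factors (GACCACCCA) and Sp1 (GGGCGG) are known to bind, and for the E-box CACGTG that MYC and MYCN bind. The E-box was added after the values had been seen. No match of 1 kind overlapped a match of another kind. E2F letters were in 2 of the 6 genes, *Cdk2* and *Cdc25a*, and in 2.265% of 32851 promoters. *Cdk2* rose and *Cdc25a* did not pass the test, and whether the letters play a part was not tested. The 2 stretches with such letters are shown. Each is written 5′ to 3′ along the gene, over the 150 bases before the listed start, with the E2F letters in capitals. The stretch of *Cdc25a* runs past the first base of the gene at 109875518.
Cdk2, chr10:128705052-128705201 (GRCm38.p6, minus strand): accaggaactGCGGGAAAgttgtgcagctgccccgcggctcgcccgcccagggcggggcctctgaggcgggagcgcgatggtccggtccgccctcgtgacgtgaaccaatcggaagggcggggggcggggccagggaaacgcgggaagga
Cdc25a, chr9:109875429-109875578 (GRCm38.p6, plus strand): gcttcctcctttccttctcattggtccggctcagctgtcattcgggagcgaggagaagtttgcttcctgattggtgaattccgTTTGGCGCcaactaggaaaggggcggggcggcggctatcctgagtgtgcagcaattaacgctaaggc
The match in *Cdk2* begins 140 bases before the start and reads on the opposite strand. The match in *Cdc25a* begins 67 bases before the listed start, which lies inside the gene.

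The GLI letters were in none of the 7 windows of these 6 genes and in 0.253% of all promoters, and a missing match says only that these letters are not in this window. The Sp1 letters were in 5 of the 6 genes, *Ccnd3*, *Ccne1*, *Cdc25a*, *Cdk2* and *Cdk4*, and in 35.7% of all promoters. The E-box was in the window of *Cdk6*, which lies inside the gene, with 1 copy, and in *Cdk4*, with 4 copies. Of all promoters, 7.15% held at least 1, and 8 promoters (0.0244%) held at least 4. The 250 bases before the start of *Cdk4* are shown for this repeat, with the E-boxes in capitals.
Cdk4, chr10:127063285-127063534 (GRCm38.p6, plus strand): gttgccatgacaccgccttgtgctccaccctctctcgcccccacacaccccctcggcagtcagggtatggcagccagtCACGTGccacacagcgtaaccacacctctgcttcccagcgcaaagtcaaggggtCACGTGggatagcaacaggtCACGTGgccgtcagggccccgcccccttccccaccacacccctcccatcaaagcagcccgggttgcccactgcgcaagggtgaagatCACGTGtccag
The 4 copies begin 172, 118, 98 and 11 bases before the start. *Myc* and *Mycn*, whose products bind this E-box, were looked at after their values had been seen. *Myc* had signals of 7.36, 7.42, 7.72 and 7.41 in vehicle-treated and 7.85, 7.80, 7.69 and 7.85 in SHH-treated cNCCs, with the third vehicle-treated array inside the range of the SHH-treated ones. Its log2 fold change was 0.32 (SE 0.09, limma adjusted p = 0.0599), and that of *Mycn* was 0.23 (SE 0.14, limma adjusted p = 0.383), so that neither passed the test. A match of letters is a description and not a site in use.

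**Figure D3:**
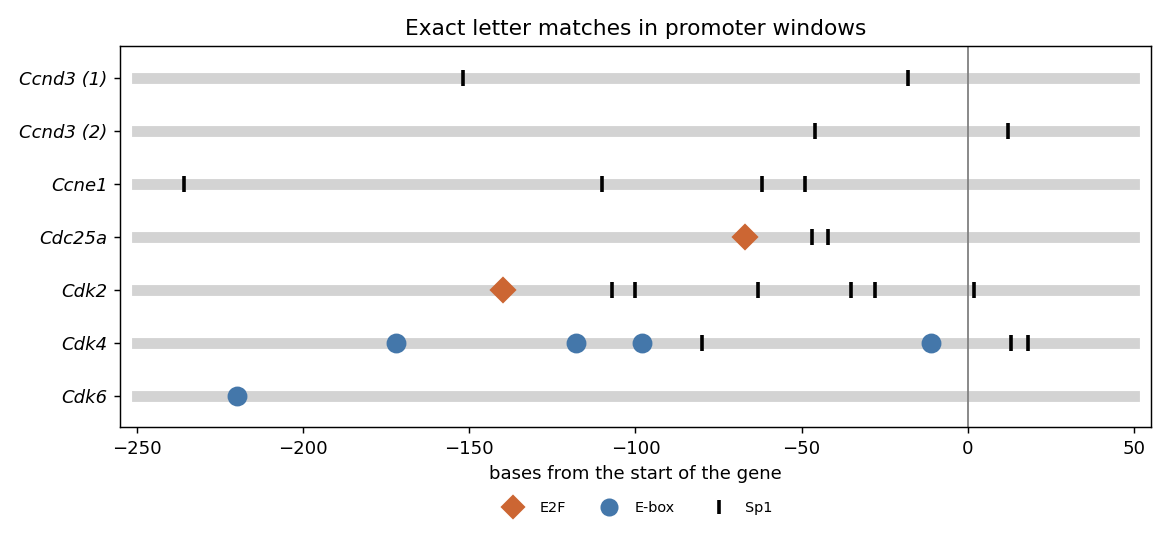
Exact letter matches in the 7 promoter windows of 6 genes. The horizontal axis is the distance in bases from the listed start of each window, which for *Cdk6*, *Cdc25a* and 1 window of *Ccnd3* lies inside the gene. Grey bars are the windows, diamonds mark E2F letters, circles E-boxes and ticks Sp1 letters, each at its first base. *Cdk2* and *Cdc25a* hold the E2F letters, *Cdk4* holds 4 E-boxes and *Cdk6* 1, and no window holds the GLI letters.

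For each called gene, the genes most like it were those with the smallest root mean square difference of their 8 signals, each gene centred on its own mean, among the 22180 genes. For *Ccnd1* they were *Ntn3* (difference 0.021) and *Slc39a10* (0.023), with log2 fold changes of 0.59 and 0.56. For *Ccnd2*, the one that fell, they were *P2rx4* (0.037) and *Ptgs2os* (0.039), both at -0.70. *Ccne1* was nearest to *Zwilch* (0.040), which encodes a subunit of a kinetochore complex, and *Stk40* (0.054), at 0.63 and 0.64. *Cdk2* was nearest to *Lig1* (0.042), the DNA ligase that joins replication fragments, and *Crybg3* (0.046), at 0.46 and 0.42. *Cdk6* was nearest to *Hsph1* (0.060), a heat shock protein, and *Gprc5b* (0.066), at 0.74 and 0.70. The measure favours genes with the same size of change, and it is a description over 8 arrays with no test.

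Among the 7 inhibitors of these kinases, 2 fell, none rose and 5 did not pass the test, with a median log2 fold change of 0.01. *Cdkn1c*, which encodes p57 of the CIP/KIP family, had signals of 8.65, 8.57, 8.69 and 8.62 in vehicle-treated and 7.91, 7.79, 7.93 and 8.05 in SHH-treated cNCCs. It fell by 0.71 (SE 0.07, limma adjusted p = 0.000222), with all SHH-treated arrays lower. *Cdkn1b*, which encodes p27, had signals of 9.42, 9.53, 9.39 and 9.47 with vehicle and 9.09, 8.99, 9.00 and 8.99 with SHH. It fell by 0.44 (SE 0.06, limma adjusted p = 0.00135), again without overlap. *Cdkn1a*, the p21 gene, was at 0.36 (SE 0.13, limma adjusted p = 0.115), and its groups overlapped. The INK4 genes, whose products bind CDK4 and CDK6, had log2 fold changes of 0.10 (*Cdkn2a*), -0.10 (*Cdkn2b*), 0.01 (*Cdkn2c*) and 0.15 (*Cdkn2d*), with adjusted p from 0.299 to 0.952.

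Of 13 genes for retinoblastoma proteins and E2F factors, 3 rose, none fell and 10 did not pass the test (median 0.20). *E2f8* rose by 1.74 (SE 0.13, limma adjusted p = 5.24e-05) and *E2f7* by 1.12 (SE 0.09, limma adjusted p = 8.47e-05). Both encode atypical E2Fs, which repress E2F target genes. *E2f8* was at 5.72, 5.50, 5.97 and 6.03 with vehicle, near the array medians, and at 7.70, 7.54, 7.59 and 7.35 with SHH. *Rbl1*, which encodes the retinoblastoma relative p107, rose by 0.69 (SE 0.07, limma adjusted p = 0.000325), from between 6.94 and 7.18 to between 7.70 and 7.84. *Rb1*, *E2f1* and *Rbl2*, named here after their values were seen, were at 0.31, 0.28 and -0.26. Their limma adjusted p were 0.0166, 0.0174 and 0.0153, so that none passed. Their groups did not overlap, which was so for 18.6% of all clusters and for other uncalled genes of this list.

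Of 6 measured genes for CDK phosphorylation, 3 rose and 3 did not pass the test (median 0.21). Beside *Cdc25b* and *Cdc25c*, which oppose it, *Wee1*, the kinase that places the inhibitory phosphate, rose by 0.38 (SE 0.06, limma adjusted p = 0.00285). *Wee1* missed the threshold when SHH replicate 1 or 2, or vehicle replicate 1, 3 or 4, was left out, with adjusted p from 0.0107 to 0.0122. *Cdk7*, *Ccnh* and *Mnat1*, which form the kinase that activates CDKs, were at -0.24, 0.04 and -0.20, with adjusted p of 0.0705, 0.782 and 0.0632.

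Of 13 measured genes for the turnover of G1 cyclins and inhibitors, 1 rose, 1 fell and 11 did not pass the test (median 0.14). *Cks2*, which encodes a small CDK-binding protein, rose by 1.11 (SE 0.10, limma adjusted p = 0.000131), and it has 4 clusters, of which 3 hold the same values and the other was at 1.04. *Cryab*, a small heat shock protein that serves as an adaptor for cyclin D1 degradation, fell by 0.91 (SE 0.07, limma adjusted p = 5.71e-05), from between 10.68 and 10.87 to between 9.76 and 9.94. Its second cluster was at -0.80. Of 14 measured transcriptional regulators of D-type cyclin genes, 2 rose, 2 fell and 10 did not pass the test (median 0.02). *Egr1*, an immediate early factor, rose by 1.14 (SE 0.07, limma adjusted p = 1.69e-05), and *Ctnnb1*, the β-catenin gene, rose by 0.92 (SE 0.06, limma adjusted p = 3.58e-05). Of the AP-1 factors, *Jun* fell by 0.54 (SE 0.09, limma adjusted p = 0.00603) and *Jund* by 0.53 (SE 0.06, limma adjusted p = 0.000705). The call of *Jun* was lost without any 1 of the vehicle replicates or SHH replicate 1 or 2, with adjusted p from 0.0114 to 0.0228, as well as under the methods' t-test (0.0157) and quantile normalization (0.0149), and a second cluster of *Jund* was at -0.24 (adjusted p = 0.283).

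Genes for S phase entry and later stages of the cycle were counted in the same way. The first list is named S phase entry downstream of cyclin E and CDK2, and the name is loose. Of its 10 genes, 7 rose, none fell and 3 did not pass the test, with a median of 0.63. *Cdc45*, a part of the replicative helicase, rose by 1.06 (SE 0.12, limma adjusted p = 0.000595), *Cdc6*, which loads the helicase, by 1.02 (SE 0.08, limma adjusted p = 6.49e-05), *Mybl2*, a transcription factor gene, by 0.96 (SE 0.09, limma adjusted p = 0.000234) and *Dbf4*, which activates the CDC7 kinase, by 0.85 (SE 0.06, limma adjusted p = 6.45e-05). A second cluster of *Mybl2* was at 0.12 (adjusted p = 0.406). Of 5 measured S phase and mitotic cyclins with *Cdk1*, 3 rose, none fell and 2 did not pass the test (median 1.07). *Ccna2*, the A-type cyclin that succeeds cyclin E on CDK2, had signals of 6.60, 6.37, 7.0 and 6.26 in vehicle-treated and 9.11, 9.06, 9.02 and 8.86 in SHH-treated cNCCs. It rose by 2.46 (SE 0.15, limma adjusted p = 1.99e-05) or 5.495-fold. *Ccnb2*, a mitotic cyclin, rose by 1.71 (SE 0.10, limma adjusted p = 1.63e-05) and *Cdk1*, its kinase, by 1.07 (SE 0.08, limma adjusted p = 4.80e-05). *Ccna1* and *Ccnb3*, the germ cell relatives, were at 0.04 and -0.50 with adjusted p of 0.806 and 0.0189.

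A list named cyclins and kinases outside the cell cycle, many of which serve transcription and neurons among other tasks, was set beside the G1 genes as relatives by sequence. The name is loose, and the list is not a set free of cell cycle genes. Of these 26 genes, 1 rose, 1 fell and 24 did not pass the test, with a median of -0.04. *Ccng2* rose by 0.36 (SE 0.05, limma adjusted p = 0.00193) and *Cdk14* fell by 0.36 (SE 0.06, limma adjusted p = 0.00414). The call of *Cdk14* was lost on leaving out any 1 array except vehicle replicate 3, with adjusted p from 0.0109 to 0.0178. All counts of these lists stand against the 9.98% of genes called in either direction, and no list was tested against the others.

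**Figure D4:**
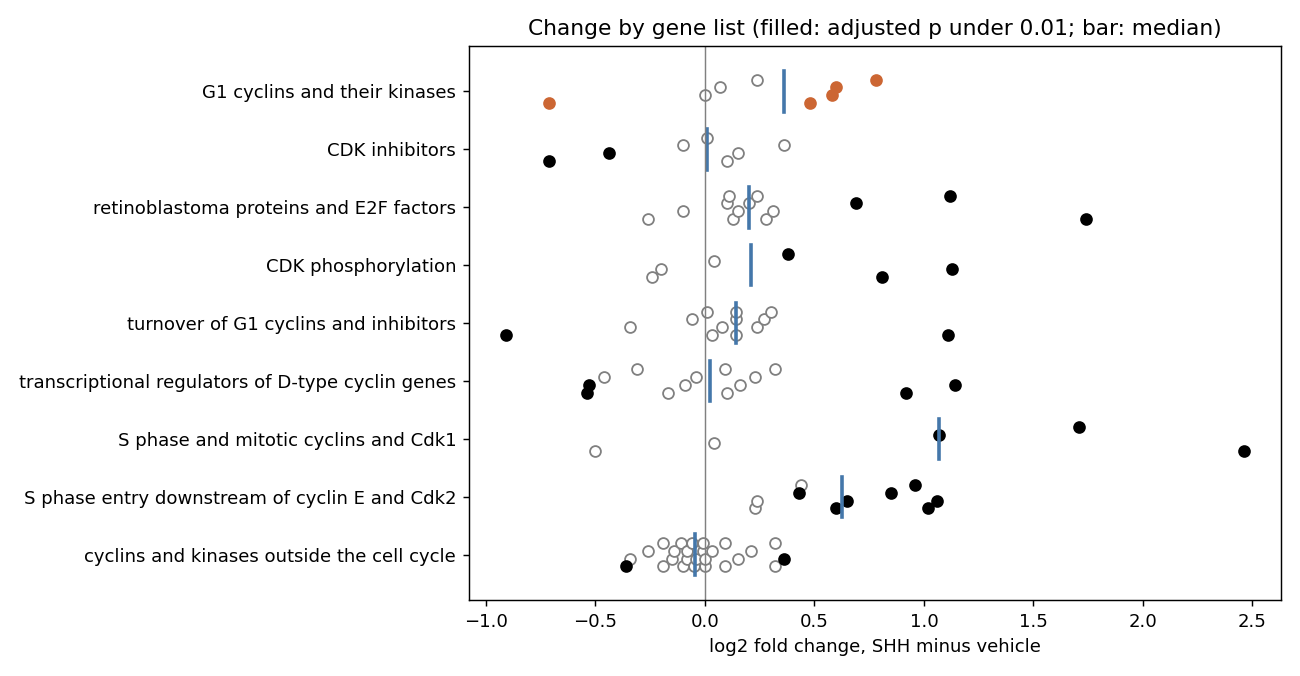
Log2 fold change, SHH minus vehicle (horizontal axis), of every measured gene of the G1 cyclins and kinases (top, orange where called) and of 8 lists beside them; filled points passed an adjusted p of 0.01, open points did not, and a blue bar is the median of its list. The medians run from -0.04 for the list named cyclins and kinases outside the cell cycle to 1.07 for S phase and mitotic cyclins with *Cdk1*. That of the G1 genes is 0.36.

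The calls were repeated under 18 settings of the test, the reported one included, that differ in normalization, filter, test or arrays used. *Ccnd1*, *Ccnd2* and *Cdk6* passed in all 18, with log2 fold changes of 0.57 to 0.60, -0.74 to -0.64 and 0.72 to 0.83. *Ccne1* passed in 17 and *Cdk2* in 16. *Ccnd3* and *Cdc25a* passed in none, with log2 fold changes of -0.03 to 0.04 and 0.05 to 0.11.

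**Figure D5:**
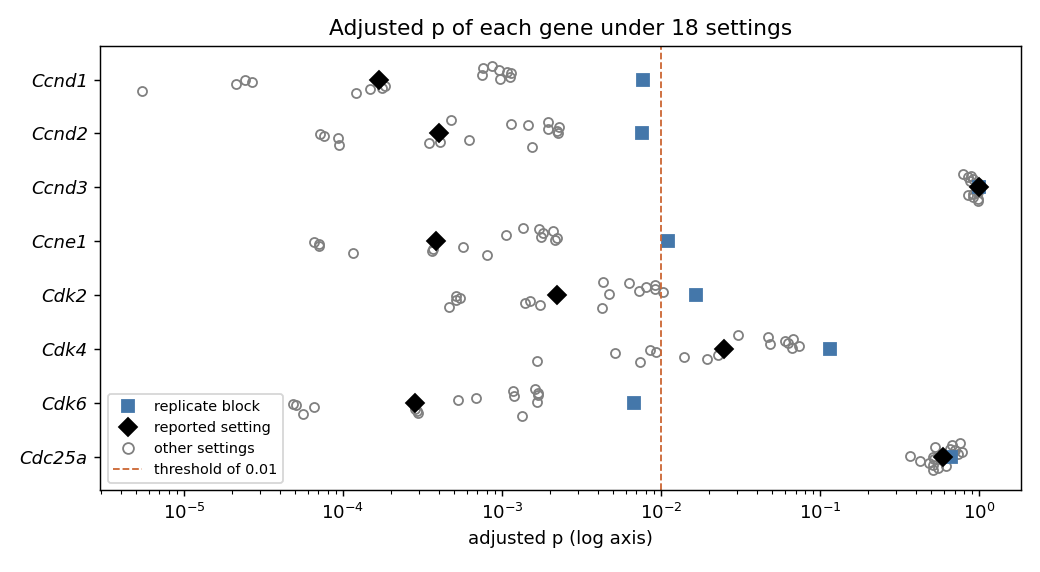
Adjusted p of each measured gene (horizontal log axis) under 18 settings; black diamonds are the reported setting, blue squares the fit with the replicate number as a block, open circles the other settings, and the dashed line is the threshold of 0.01. *Cdk4* lies on both sides of the threshold, *Ccne1* crosses it only under the block and *Cdk2* under the block and without vehicle replicate 2.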

How the data were processed

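The authors determined intensities with Affymetrix GCOS, made signal files with Expression Console and deposited log2 signals per transcript cluster, already comparable between arrays. The summarization algorithm and the genome build are not stated. The methods tested differences with Transcriptome Analysis Console 2.0.

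Groups were taken from the labels. All 41345 clusters were fitted with limma 3.58.1 in R 4.3.3, SHH minus vehicle, with no filter and no block, with calls made at an adjusted p (Benjamini-Hochberg) below 0.01. The fit was first tested on simulated data. Symbols came from the array annotation, in which 23521 clusters carry 1 symbol, 1820 several and 16004 none. Only the first kind was named, and the cluster with the highest mean stands for a gene. Tests of 1 value were exact permutation tests over the 8 arrays, and promoters were searched in Python 3.11.15. P-values measure the spread between these cultures of 1 line, and precision is limited by having 8 arrays.

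The 9 genes and all lists were chosen with earlier results of these data known. Named besides the 9 genes were up to 4 called genes with the largest changes of each list, any gene of a list of up to 7, the 2 genes most like each called gene, and *Gli1*, *Ptch1* and *Hhip*. *Myc*, *Mycn*, *Rb1*, *E2f1*, *Rbl2*, the E-box and the marker genes were named after their values were seen. Alternatives were an ordinary t-test, trend and robust settings, other normalizations, filters on clusters, thresholds, the replicate number as a block and leaving out each array. The ordinary t-test stands in for the authors' program, whose test the methods do not name.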

Additional observations from a re-analysis of the deposited data

Results flagged for a closer look

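Among 112 groups of 4 arrays, for 56 genes named above, 9 held 1 array that stood far from the other 3, by Dixon's criterion at its 95% level, and chance alone marks about 5% of groups. Only 1 of the 9 concerned a G1 gene: vehicle replicate 4 of *Ccnd3* was at 9.64, with the others at 9.54 to 9.55. The remaining 8 were in neighbouring genes. In vehicle-treated cNCCs, *Mnat1* was at 9.06 in replicate 2 (the others 9.12 to 9.13), *Cdc45* at 5.06 in replicate 3 (5.26 to 5.30), *Mybl2* at 5.98 in replicate 1 (5.63 to 5.68), *Myc* at 7.72 in replicate 3 (7.36 to 7.42) and *Zwilch* at 5.91 in replicate 4 (5.76 to 5.79). In SHH-treated cNCCs, *Cdkn1b* was at 9.09 in replicate 1 (the others 8.99 to 9.00), *Ctnnb1* at 11.85 in replicate 4 (12.02 to 12.04) and *Cdc45* at 5.95 in replicate 4 (6.38 to 6.47). The calls of *Cdkn1b*, *Ctnnb1*, *Cdc45*, *Mybl2* and *Zwilch* held without any 1 array.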

How the results depend on the processing

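Of 350 values recomputed under another setting, 322 kept their side of the threshold, or for counts stayed within 1.5 times, and no called value changed sign. *Ccnd3*, never called, lay on both sides of 0 (-0.03 to 0.04). Of the G1 genes, 4 were called higher; the count was 2 with a replicate block and 2 with a fold change of at least 1.5 also required, and 3 to 4 on leaving out each array. The count called lower was 1 throughout. Over all clusters, 1226 were called higher and 1453 lower, against 624 and 616 with the replicate block, 2073 and 2621 at an adjusted p under 0.05, 765 and 809 with the fold change also required, and 934 to 1070 and 1018 to 1322 on leaving out each array. With the replicate block *Ccne1* stayed at 0.60 (adjusted p = 0.0110) and *Cdk2* at 0.48 (adjusted p = 0.0165), neither of which passed. The labels do not say whether equal replicate numbers mark paired cultures, and this was not tested gene by gene. Over all clusters, deviations of same-numbered arrays correlated at -0.022 to 0.019 and those of differently numbered arrays at -0.105 to 0.067. *Cdk4* was called at 0.24 under an ordinary t-test (adjusted p = 0.00735), trend and robust settings (0.00165), clusters above the median signal (0.00514), 1-symbol clusters (0.00931) and 1 cluster per gene (0.00853). Its adjusted p over all settings was 0.00165 to 0.115. On leaving out each array *Cdk2* was at 0.45 to 0.52 (adjusted p 0.00430 to 0.0103) and *Cdk2* minus *Cdk4* at 0.20 to 0.28. With the block, list counts changed from 2 to 1 for the inhibitors and from 4 to 2 for regulators of D-type cyclin genes (*Jun* at adjusted p = 0.0132 and *Jund* at 0.0141). They changed from 7 to 5 for S phase entry, from 3 to 2 for CDK phosphorylation and from 2 to 0 for the list named as outside the cell cycle. The cause of these shifts was not tested. No other cluster of a measured G1 gene could be used, since each has 1, and the pair *Ccne1* and *Ccne2* could not be run. No background level comes with the deposited signals, and signals near the array medians limit which changes of dim genes could be measured.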
